A study of Mus musculus with 6 samples.

Results

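Genes that cut and polyadenylate messenger RNA were examined in RAW 264.7 cells, a mouse macrophage-like line, treated with 15-HETE and LPS. The 10 members, subunits of the 3′ end processing machinery, were chosen by name with the measured rise of Cstf3 on these arrays already known, and a gene was measured where a probe of the array carried its symbol alone. This held for 7 of 10, Cstf1, Cstf2, Cstf3, Cpsf1, Cpsf3, Nudt21 and Pcf11, while Cpsf2, Cpsf4 and Cpsf6 were not analysed here. The array has 33012 probes and names 13840 genes in this way. The rule took the brightest probe of each gene over all 6 samples, but each measured member had 1 probe, so intensity decided nothing. The rise of Cstf3 is therefore given as a description and is no independent evidence for the group.

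The tested cells received 40 μM 15(S)-HETE, a hydroxylated product of arachidonic acid, followed at once by 1 μg/mL LPS, the bacterial endotoxin that activates macrophages. The cells they were set against received LPS alone at the same concentration, and whether these were given the solvent of 15-HETE is not stated in the sources used here. Both groups were harvested at 24 h with 3 biological replicates each, every replicate being 6 pooled wells of 1 cell line, so p-values describe the spread between such pools. Unstimulated cells were not analysed here, and the hybridization sets of the arrays are not given, so array set and treatment cannot be told apart.

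Quantile-normalized intensities in all 6 samples had a median of 837. Pearson's r of log2 values, taken across probes, which are not independent, was 0.955 to 0.962 for pairs of 15-HETE + LPS samples and 0.972 to 0.979 for pairs of LPS samples. Between the groups it was 0.943 to 0.962, which overlaps the range of the 15-HETE + LPS pairs. Of 10 macrophage markers listed, the 7 measured summed to between 3652700 and 3790900 in 15-HETE + LPS samples, against 2530600 to 3284800 in LPS samples, and 0 of them lay below the median intensity of the array. That sum was made up mostly of Lyz2. Adgre1, Lyz2, Spi1 and Fcgr1 were apart upward, while Itgam, Mertk and Cd14 overlapped. The 6 fibroblast markers summed to 14664 to 16269 in 15-HETE + LPS samples, against 23320 to 29338 in LPS samples, and 2 of them lay below that median. Only Dcn was apart between the groups, at 5926, 6192 and 5348 in 15-HETE + LPS samples, against 11876, 13685 and 18190 in LPS samples, while the other 5 overlapped and Col3a1 was at 0.48 on the log2 scale. The 4 granulocyte markers summed to 2223.8 to 3190 in 15-HETE + LPS samples, against 4061.5 to 5645.2 in LPS samples, with 1 below it, and Mpo and Elane were apart while Camp and Ltf overlapped. The 5 epithelial markers summed to 2530.8 to 4641.1 in 15-HETE + LPS samples, against 4942.9 to 6011 in LPS samples, with 4 below it. Krt8 was apart downward (log2 fold change -1.05) and Cdh1 upward (0.61), while Epcam, Krt18 and Krt19 overlapped. The 4 lymphocyte markers summed to 2776.4 to 6120.7 in 15-HETE + LPS samples, against 3122.3 to 3511 in LPS samples, which overlap. The 2 erythroid markers overlapped as well, at 1660.4 to 3338 in 15-HETE + LPS samples, against 1859.4 to 2839.7 in LPS samples. The 5 LPS-responsive markers summed to 2449600 to 2632600 in 15-HETE + LPS samples, against 1693800 to 2430700 in LPS samples, a sum made up mostly of Ccl5. Of these, limma with a prior variance that follows intensity called Il1b higher (log2 fold change 1.29) and Il6 (-1.69), Nos2 (-0.96) and Tnf (-0.77) lower, and without it called 0 of the 5, of which 1 was higher and 3 lower at an unadjusted p under 0.05. Their part in the results below was not tested.

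Nearly every messenger RNA outside the histone genes is made by cutting the nascent transcript downstream of a hexamer such as AAUAAA and adding a poly(A) tail. CPSF reads the hexamer and holds the nuclease, CstF binds the U- or GU-rich element downstream, CFIm binds UGUA elements upstream, and Pcf11 belongs to CFIIm, which links cutting to the end of transcription. Amounts of these factors are known to shift the choice between alternative poly(A) sites, and in macrophages LPS is known to raise the CstF subunit encoded by Cstf2. In a bulk sample, more RNA per cell and more cells of a kind cannot be told apart.

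Of the 3 subunits of CstF, only Cstf3 passed the test after 15-HETE. Cstf3, which encodes the scaffold subunit that joins the other two subunits and contacts CPSF, rose about 4-fold, while Cstf1 and Cstf2 had values near to or below those of LPS cells. Cstf3 (probe 505734) had intensities of 6241, 5779 and 5921 in 15-HETE + LPS samples, against 1430, 1643 and 1519 in LPS samples. The lowest treated sample was thus far above the highest LPS sample. Means were 5980 ± 236 and 1531 ± 107 (SD, n = 3 each), a log2 fold change of 1.97 with a standard error of 0.17 and an adjusted p of 0.0312 (limma, Benjamini-Hochberg over all probes). The 95% interval of the fold was 2.95 to 5.19. Among the 13840 named genes Cstf3 had the 8th lowest p and the 64th highest log2 fold change.

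Cstf2 (probe 698270) encodes the subunit whose RNA-binding domain reads the downstream element. Its intensities were 8968, 10075 and 8329 in 15-HETE + LPS samples, against 14839, 11849 and 13268 in LPS samples. Every treated sample was below every LPS sample. The log2 fold change was -0.54 (95% interval -0.999 to -0.09, adjusted p = 0.190 from limma), and the gene did not pass. With a prior variance that follows intensity in limma (the intensity trend) the adjusted p was 0.0452. That call was held in 1 of 6 fits when a sample was left out, the one without LPS replicate 1 (adjusted p = 0.0248), with adjusted p of up to 0.152 in the others.

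Cstf1 (probe 741541), the WD-repeat subunit, was the brightest member. It had 51733, 48414 and 53267 in 15-HETE + LPS samples, against 56884, 48007 and 45928 in LPS samples, and the groups overlapped. The log2 fold change was 0.03 (95% interval -0.41 to 0.46, adjusted p = 0.943 from limma). The interval leaves room for changes of up to 1.38-fold upward, and it does not show equal levels. Cstf2t, a retrogene copy of Cstf2 whose product resembles it and which was named here after its values were seen, had 17445, 17849 and 18881 in 15-HETE + LPS samples, against 21484, 16106 and 18264 in LPS samples (log2 fold change -0.03, adjusted p = 0.936 from limma).

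**Figure D1:**
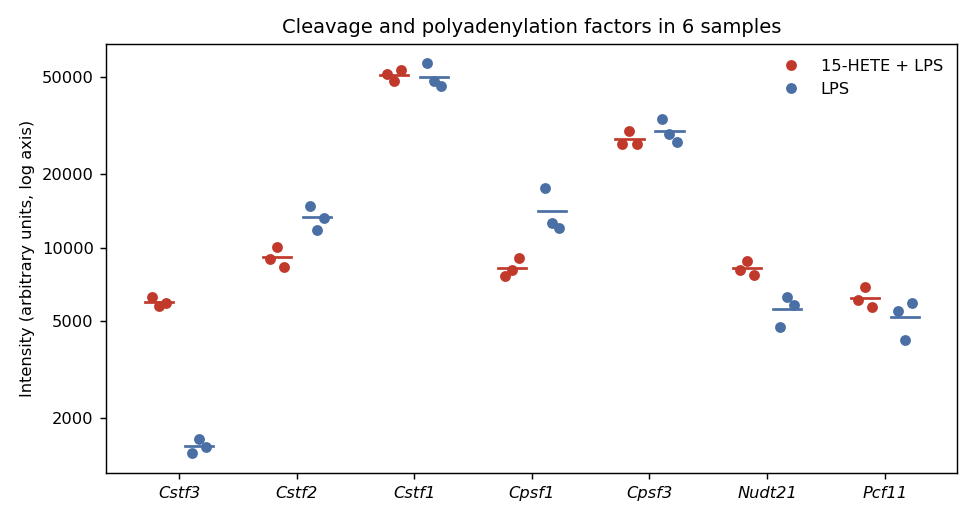
Quantile-normalized intensity (log axis, arbitrary units) of the 7 measured factors, with 15-HETE + LPS samples in red to the left of LPS samples in blue; points are the 3 samples of a group and bars their means. For Cstf3 the treated samples lie at 5779 to 6241 and the LPS samples at 1430 to 1643, while the groups overlap for Cstf1, Cpsf3 and Pcf11.

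The stretches before the transcription starts of the CstF genes are shown because their products work as 1 complex while Cstf3 alone passed the test. Each covers the 250 bases upstream of the start in RefSeq (GRCm38.p6), 5′ to 3′ on the plus strand, at chr2:104590234-104590483 for Cstf3, chrX:134058926-134059175 for Cstf2 and chr2:172370753-172371002 for Cstf1. Capitals mark GC boxes (GGGCGG, or CCGCCC on the other strand) and CCAAT boxes (CCAAT, or ATTGG).
Cstf3: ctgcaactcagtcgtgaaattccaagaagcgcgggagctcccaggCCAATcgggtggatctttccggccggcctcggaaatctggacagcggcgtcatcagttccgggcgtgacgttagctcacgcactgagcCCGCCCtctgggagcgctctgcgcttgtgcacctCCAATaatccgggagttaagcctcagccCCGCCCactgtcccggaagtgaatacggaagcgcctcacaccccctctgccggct
Cstf2: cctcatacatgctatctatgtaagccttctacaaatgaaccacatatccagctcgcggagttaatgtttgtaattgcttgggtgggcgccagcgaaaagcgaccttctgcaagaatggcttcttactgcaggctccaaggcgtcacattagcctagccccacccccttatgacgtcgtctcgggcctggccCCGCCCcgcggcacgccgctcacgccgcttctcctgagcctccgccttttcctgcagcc
Cstf1: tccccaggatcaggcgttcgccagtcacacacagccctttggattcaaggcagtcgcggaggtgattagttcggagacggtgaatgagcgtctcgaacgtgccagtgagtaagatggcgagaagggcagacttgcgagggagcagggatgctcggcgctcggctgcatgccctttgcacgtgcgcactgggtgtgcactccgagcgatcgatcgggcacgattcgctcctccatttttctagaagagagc
The window of Cstf3 held 2 GC boxes and 2 CCAAT boxes, that of Cstf2 held 1 GC box and 0 CCAAT boxes, and that of Cstf1 held 0 of either. A TATA box (TATAAA, or TTTATA) was found in 0 of the 3 windows, and no motifs overlapped. Of 32851 upstream windows of this length 32.7% held a GC box, 33.8% a CCAAT box and 12.4% a TATA box. The GC content was 62.8% for Cstf3, 57.6% for Cstf2 and 59.2% for Cstf1. A match of letters is a description, and the arrays measured transcripts, not binding.

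Of the CPSF subunits, Cpsf1 had lower and Cpsf3 similar intensities after 15-HETE, and neither passed the test. Cpsf1 (probe 745125) encodes the largest subunit, a scaffold of CPSF. It had 7664, 8113 and 9049 in 15-HETE + LPS samples, against 17590, 12631 and 12068 in LPS samples. The groups did not overlap, and LPS replicate 1 was the highest of all. Its log2 fold change was -0.75 (95% interval -1.28 to -0.22, adjusted p = 0.141 from limma). With the intensity trend it passed (adjusted p = 0.0252), and it did so in 2 of 6 fits with a sample left out, namely when LPS replicate 1 (log2 fold change -0.58, adjusted p = 0.00620) or LPS replicate 3 (-0.85, adjusted p = 0.0399) was omitted.

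Cpsf3 (probe 909403) encodes the nuclease that makes the cut. Its intensities were 26505, 30172 and 26697 in 15-HETE + LPS samples, against 33752, 29088 and 27008 in LPS samples, which overlap. The log2 fold change was -0.10, with a 95% interval of -0.55 to 0.34 and an adjusted p of 0.792 (limma). Among the other parts of the machinery on a list of 16 genes, of which 14 were measured, Wdr33 and Fip1l1 also belong to CPSF. Wdr33, which binds the hexamer, had 20768, 19254 and 18716 in 15-HETE + LPS samples, against 10922, 14118 and 11274 in LPS samples, without overlap (log2 fold change 0.70, adjusted p = 0.124 from limma, or 0.0144 with the intensity trend, which it kept in 2 of 6 fits with a sample left out, those without LPS replicate 1 or 2). Fip1l1, which recruits the polymerase and was named here after its values were seen, had a log2 fold change of -0.05 (95% interval -0.52 to 0.42).

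Nudt21, the subunit of CFIm that binds UGUA, and Cpsf7, one of the larger subunits that pair with it, had opposite directions. Nudt21 (probe 638629) had 8090, 8815 and 7749 in 15-HETE + LPS samples, against 4729, 6282 and 5815 in LPS samples, and all treated samples were the higher. Its log2 fold change was 0.56 (95% interval 0.09 to 1.03, adjusted p = 0.189 from limma), or an adjusted p of 0.0613 with the intensity trend, so it passed in neither. It passed with that trend only when LPS replicate 1 was left out (adjusted p = 0.0365). Cpsf7, which is no member, had 14401, 15129 and 12892 in 15-HETE + LPS samples, against 40166, 26061 and 24115 in LPS samples. Again the groups were apart, with LPS replicate 1 the highest. Its log2 fold change was -1.06 (95% interval -1.66 to -0.45, adjusted p = 0.101 from limma, or 0.00972 with the intensity trend). With that trend Cpsf7 passed in 6 of 6 fits with a sample left out (largest adjusted p = 0.0490). It was at -0.83 without LPS replicate 1.

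Pcf11 (probe 769260), which binds the tail of RNA polymerase II, had 6111, 6865 and 5726 in 15-HETE + LPS samples, against 5483, 4164 and 5941 in LPS samples. The groups overlapped, and LPS replicate 2 was the lowest. The log2 fold change of 0.27 (95% interval -0.24 to 0.79, adjusted p = 0.516 from limma) was 0.12 without LPS replicate 2. Its partner in CFIIm, the kinase Clp1, had 0.05 on the same scale (95% interval -0.55 to 0.66).

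**Figure D2:**
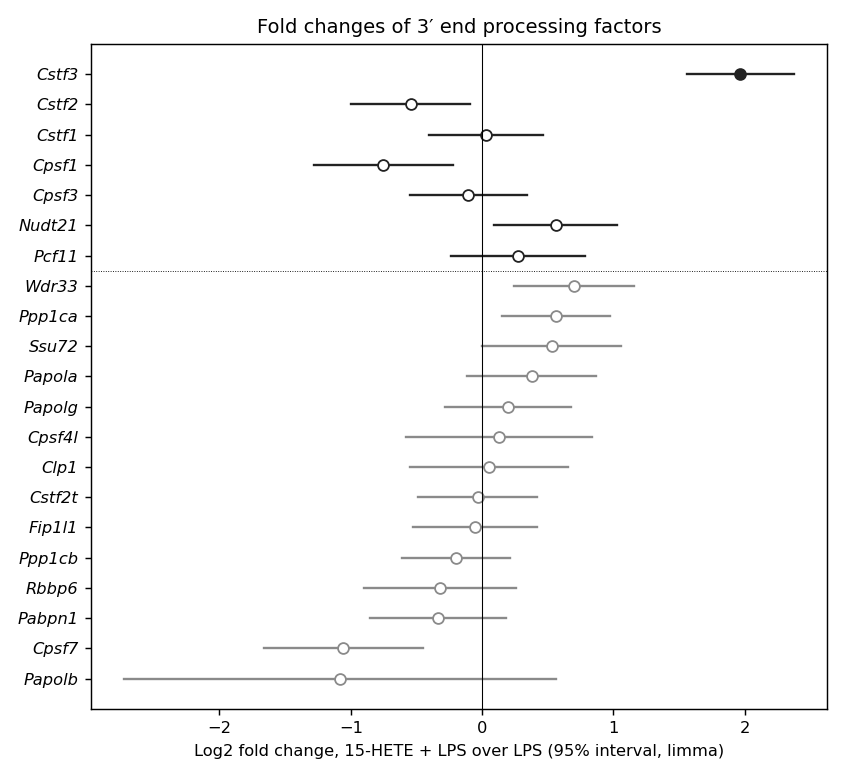
Log2 fold change of 15-HETE + LPS over LPS, with its 95% interval from limma, for the 7 measured members (black, above the dotted line) and 14 other cleavage and polyadenylation factors (grey); a filled point passed an adjusted p under 0.05. Cstf3 at 1.97 is the only filled point, and the open points whose intervals leave out 0 are Cstf2, Cpsf1, Nudt21, Cpsf7, Wdr33 and Ppp1ca.

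Together 1 of 7 members passed upward and 0 downward, where 0.759% of all named genes passed upward and 0.368% downward. With the intensity trend 1 was higher and 2 were lower, where 5.85% and 5.33% of genes were. Before adjustment (p under 0.05) 2 members were higher and 2 lower, where 10.7% and 10.6% of genes were. The groups did not overlap for 4 of 7, Cstf3 and Nudt21 upward and Cstf2 and Cpsf1 downward, where they did not for 17.5% of genes upward and 17.7% downward. The median log2 fold change was 0.03 over the members and 0.02 over all genes, and without Cstf3 the members ran from -0.75 to 0.56. So members lay on both sides of 0, and 6 of the 7 measured did not pass. The limits given in the methods are a change of 1.8-fold in most samples together with an adjusted p no higher than 0.025, and Cstf3 was the only member past the fold limit. When the methods' t-test was adjusted among the 5676 probes past that fold, Cstf3 passed (adjusted p = 0.0153), as did 0.881% of these probes upward and 0.669% downward. With limma adjusted over the whole array 0 probes met both limits. The study's own filter on S/N and flags was not applied here.

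Ratios between partners within a sample do not depend on a factor common to the whole array. The log2 ratio of Cstf3 to Cstf2 was higher by 2.51 in 15-HETE + LPS samples than in LPS samples, or 5.70-fold. Relative to the mean of LPS samples it lay at 2.60, 2.32 and 2.63 in the treated samples, against -0.26, 0.27 and -0.01 in the LPS samples. That of Cstf3 to Cstf1 was higher by 1.94 and that of Cstf1 to Cstf2 by 0.57. Both ratios with Cstf3 carry the rise that was known when the genes were chosen. The ratio of Cpsf1 to Cpsf3 was lower by 0.65 in treated samples (log2 difference -0.65), and that of Nudt21 to Cpsf7 was higher by 1.61, this last pair being chosen after its values were seen. The groups were apart in all 5 pairs, with p = 0.1 for each in the exact permutation test (two-sided, 3 against 3, also 0.1 after Benjamini-Hochberg adjustment over the 5 pairs), which is the smallest p this design allows. The ratios within CstF share genes and are not independent, and the share of all gene pairs that are apart was not computed. Single genes were apart upward in 17.5% of cases and downward in 17.7%.

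**Figure D3:**
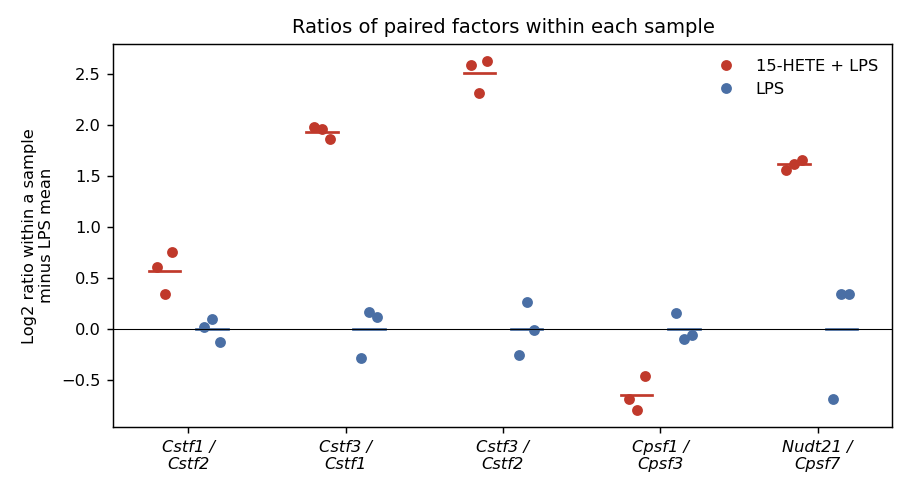
Log2 ratio of the intensities of 2 factors within each sample, minus the mean of that ratio over LPS samples, with 15-HETE + LPS samples in red to the left of LPS samples in blue and bars at the means. The ratio of Cstf3 to Cstf2 stands at 2.32 to 2.63 in treated samples, and 1 LPS sample, replicate 1, lies below the other two for Nudt21 to Cpsf7.

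Of the 14 measured genes in the list of other cleavage and polyadenylation factors 0 passed after adjustment, where 0.759% of all genes passed upward and 0.368% downward. Before adjustment 2 were higher and 1 was lower (unadjusted p under 0.05, limma), where 10.7% and 10.6% of all genes were. With the intensity trend 2 were higher, Wdr33 and the phosphatase subunit Ppp1ca (log2 fold change 0.56), and 1 was lower, Cpsf7, where 5.85% and 5.33% of all genes were. The poly(A) polymerase itself, Papola, had 35397, 38202 and 34919 in 15-HETE + LPS samples, against 34210, 24994 and 25103 in LPS samples (log2 fold change 0.38, 95% interval -0.11 to 0.87). Pabpn1, the nuclear poly(A)-binding protein that sets tail length, had -0.34 (95% interval -0.85 to 0.18), or -0.51 without LPS replicate 1. Ppp1ca, Papola, Papolb, Pabpn1, Clp1 and, further on, Ints11 were picked for their roles after their values were seen. The lowest value was that of Papolb, a testis poly(A) polymerase, at -1.08 with a 95% interval of -2.72 to 0.56 and overlapping groups. The median over the list was 0.01 on the log2 scale.

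The removal of poly(A) tails held the other call. Parn, a poly(A)-specific ribonuclease that shortens tails, rose 6.10-fold after 15-HETE, with intensities of 3200, 3900 and 5136 in 15-HETE + LPS samples, against 704, 527 and 761 in LPS samples. All 3 LPS values lay below the median intensity of the array, 837, and the S/N values that would tell whether they exceed background were not used here. On the log2 scale the change was 2.61 with a 95% interval of 1.98 to 3.24, and limma gave an adjusted p of 0.0327, or 0.00143 with the intensity trend. It was 1 of 14 measured deadenylation genes to pass upward and 0 passed downward, again beside 0.759% and 0.368% of all genes.

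Other genes of deadenylation did not pass, and they lay on both sides of 0. Cnot8, a catalytic subunit of the CCR4-NOT deadenylase, had 11579, 10138 and 11671 in 15-HETE + LPS samples, against 5598, 6242 and 5461 in LPS samples (log2 fold change 0.95, adjusted p = 0.0675 from limma). Tob2, an adaptor that brings CCR4-NOT to transcripts, had 2500, 1796 and 2612 in 15-HETE + LPS samples, against 5318, 4873 and 5337 in LPS samples (-1.19, adjusted p = 0.0637). Both were apart between the groups and were named after their values were seen, as was Btg1, another partner of CCR4-NOT (0.76, adjusted p = 0.132). With the intensity trend 4 of the 14 were higher and 2 lower, where 5.85% and 5.33% of all genes were.

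Machineries next to cleavage held 0 calls at an adjusted p under 0.05 (limma), where 0.759% of all genes passed upward and 0.368% downward. Beside such shares, 0 calls among so few genes says little of them. In limma with the intensity trend the Integrator subunit Ints1 (adjusted p = 0.00701) and the termination factor Scaf8 (adjusted p = 0.00964) passed, both lower. Of 12 Integrator subunits, which form the 3′ ends of small nuclear RNAs, Ints1 had the lowest p, with 7170, 6154 and 6918 in 15-HETE + LPS samples, against 16837, 12995 and 11503 in LPS samples (log2 fold change -1.01, adjusted p = 0.0818 from limma), followed by Ints9 (0.37). Ints11, the nuclease related to Cpsf3, was at 0.03. Of 6 termination factors, Scaf8, which binds the polymerase tail, had -0.91 (adjusted p = 0.1002) and the kinase Cdk12 had -0.66 (adjusted p = 0.253), or -0.42 without 15-HETE + LPS replicate 3. Of 5 factors for histone mRNA ends, which carry no poly(A) tail, Ncbp2 had -0.55 and Lsm11 -0.60, and Lsm11 was at -0.31 without 15-HETE + LPS replicate 1 and at -0.96 without 15-HETE + LPS replicate 2.

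Among 3 proteins of the U1 snRNP, which can mask early poly(A) sites, Snrpa stood at 0.56 (adjusted p = 0.153 from limma) and Snrpc at 0.70 (adjusted p = 0.237), or 0.42 without LPS replicate 1, on the log2 scale. Among 9 RNA-binding proteins known to affect the choice of poly(A) site, Hnrnph1 had 26149, 23965 and 25845 in 15-HETE + LPS samples, against 15343, 12413 and 11137 in LPS samples (log2 fold change 0.98, adjusted p = 0.0759), and Khsrp had -0.75 (adjusted p = 0.0990). Both were apart between the groups. In limma with the intensity trend Hnrnph1 (adjusted p = 0.00426) and Khsrp (adjusted p = 0.00637) passed, as did Snrpa (adjusted p = 0.0163). Of 8 export and surveillance genes, Thoc5 (-0.43) and Zc3h3 (-0.43) had the lowest p. Over all 71 measured genes of these lists 1 was higher and 0 were lower, or 8 and 6 with the intensity trend, where 5.85% and 5.33% of all genes were.

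**Figure D4:**
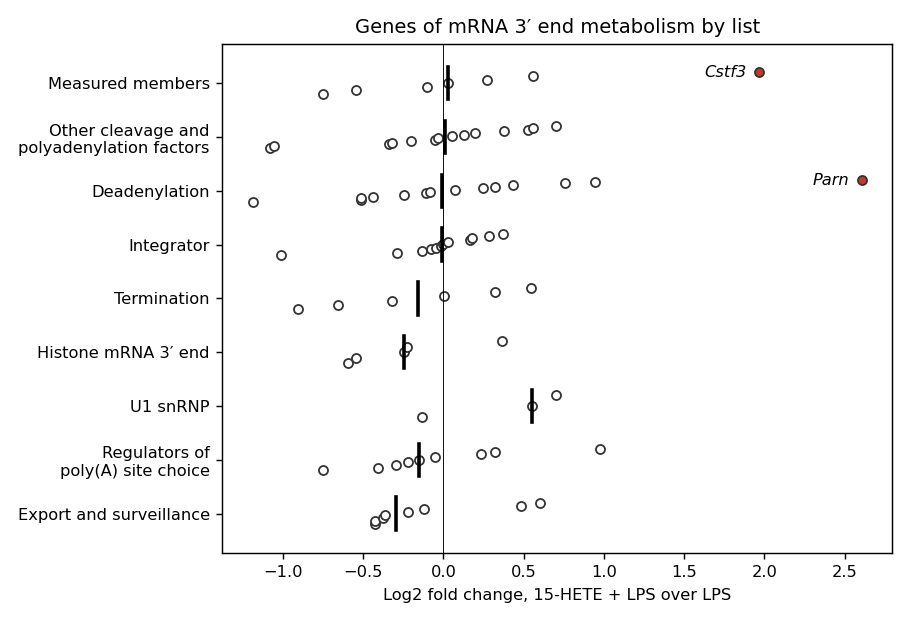
Log2 fold change of 15-HETE + LPS over LPS for each measured gene, by list, with a black bar at the median of the list; red points passed an adjusted p under 0.05 (limma) and are named. Cstf3 at 1.97 and Parn at 2.61 stand right of all other genes, whose values run from -1.19 to 0.98.

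Over the 6 samples, the genes whose log2 values followed those of Cstf3 most closely were Cdk9, the kinase that releases paused RNA polymerase II, the COP9 signalosome subunit Cops3, the lipid flippase subunit Tmem30a, the antizyme Oaz2 and the protein C receptor Procr. Pearson's r ran from 0.9965 for Procr to 0.9981 for Cdk9, taken over 8593 named genes of at least median intensity. The most opposed were Pou2f2 (r = -0.9991), Cdc14b (r = -0.9989) and Usf2 (r = -0.9982). With 3 samples a group, such an r reflects mainly the step between the groups. The size of that step differed among them, with a log2 fold change of 1.06 for Cdk9, 0.39 for Tmem30a and 1.12 for Oaz2, against 1.97 for Cstf3. Of these 8 genes limma called Oaz2 (adjusted p = 0.0498) and Pou2f2 (-2.14, adjusted p = 0.0289), where 0.759% of all genes passed upward and 0.368% downward. With the intensity trend each of the 8 passed, where 5.85% of all genes were higher and 5.33% lower. The 8 were picked for following the step of Cstf3 in these samples, so calls among them are no separate result.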

How the data were processed

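Total RNA of 6 samples was labelled with digoxigenin and hybridized to ABI mouse genome survey arrays. The authors read the arrays on a 1700 Chemiluminescent Analyzer and deposited linear intensities after quantile normalization. The deposited intensities were not filtered on S/N or flags, and background correction is not given in the sources used here. Values were turned to log2, and limma 3.58.1 (R 4.3.3) was fitted to all 33012 probes (lmFit, eBayes, two-sided, Benjamini-Hochberg over all probes, calls at an adjusted p under 0.05). Fold changes are 15-HETE + LPS over LPS.

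In the platform annotation 14411 probes carry 1 symbol, 247 carry several and 18354 carry none, and 14402 of those with 1 symbol were found in RefSeq by gene id. Each gene was read at its brightest probe with that symbol alone. Members and lists were chosen with earlier results of these data known. Named were all members, in each list the genes that passed or else the 2 with the lowest p, the 5 genes most like and 3 least like Cstf3, and genes said to be picked later. Fits were tested on simulated data. Alternatives covered the prior variance (robust fits with statmod 1.5.0), array weights, Welch tests, normalization, an offset of 100, filters on dim probes, the replicate block and left-out samples. The number of arrays limits the precision.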

Additional observations from a re-analysis of the deposited data

How the results depend on the processing

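Cstf3 kept its direction in every fit run, with a log2 fold change of 1.90 to 2.04 over 16 settings with all samples. Among probes past the fold rule, a set picked by the same group difference, it passed with the methods' t-test (adjusted p = 0.0153 against a limit of 0.025). It did not pass with that test over all probes (1.97, adjusted p = 0.0697), at the thresholds of the methods applied to limma over all probes (1.97, adjusted p = 0.0312 against a limit of 0.025), with housekeeping centring (2.00, adjusted p = 0.133) or with the replicate number as a block (1.97, adjusted p = 0.207). Over the settings with all samples 0 of the 7 members changed sign. With a sample left out Cstf1 ranged between -0.03 and 0.12 and Cpsf3 between -0.18 and -0.01. Under each of the 4 settings just named, members called higher numbered 0. Members called lower numbered 2 with the intensity trend and 1 with probes at or above the median intensity. The labels do not say whether replicate numbers pair the samples. Deviations of same-numbered samples correlated at -0.0240, 0.00350 and 0.0237, and those of differently numbered samples at -0.0538 to 0.0464. Such correlations cannot settle how the samples were prepared. The replicate block called 0 probes higher and 0 lower, and together with the intensity trend, an alternative added after seeing the data, 1058 and 1266, with 1 member lower and 8 related genes higher and 5 lower.

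With 1 sample left out limma called 0 probes, so lost calls tell nothing of single genes. Cstf3 then ranged between 1.92 and 2.02, Parn between 2.43 and 2.77 and the median of the members between -0.03 and 0.12. With the intensity trend and 1 sample left out, also added later, Cstf3 passed in 6 of 6 fits (largest adjusted p = 0.0104), 1 to 2 members were higher and 0 to 2 lower, 535 to 2595 probes were higher and 688 to 2540 lower, and 3 to 18 related genes were higher and 5 to 14 lower. Each of the highest counts came without LPS replicate 1.

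Probes called higher and lower over the whole array, 168 and 146 in the fit reported, were 1279 and 1638 with the intensity trend, 100 and 62 with a robust prior, 626 and 582 with array weights, 345 and 358 with an offset, 1207 and 1589 at or above the median intensity, 570 and 654 at or above the 25th percentile, 50 and 38 with the methods' t-test among probes past the fold rule, and 0 and 0 with that test over all probes, at the thresholds of the methods and with housekeeping centring. Related genes called, 1 higher and 0 lower, were 8 and 6 with the intensity trend, 3 and 1 with array weights, 2 and 1 with an offset, 7 and 5 at or above the median intensity and 3 and 2 at or above the 25th percentile. They were 0 higher with both forms of the methods' t-test, at its thresholds, with housekeeping centring and with the block. The cause of these shifts was not tested. The settings named after the methods do not repeat the study's own analysis, which filtered probes on S/N and flags before testing. Its thresholds were applied here to limma and to both forms of its t-test, each without that filter.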

Other observations

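Each measured member rests on 1 probe, so agreement between probes could not be examined for them. Where a related gene had several, they did not always move alike. Rbbp6, a ubiquitin ligase of the cleavage complex, had log2 fold changes of -0.32 at its brighter probe and 1.37 at a dimmer one whose values overlapped between the groups. Srsf3 had -0.15 at both of its probes and Tardbp had -0.29 and -0.31. Ywhaz, the control gene of the study's RT-PCR, had -0.43 at its brightest probe and -0.22 and 0.91 at its others, none of which passed limma (adjusted p = 0.423, 0.563 and 0.123 in this order), and the brightest was at -0.17 without LPS replicate 1. The groups were apart at all 3 of its probes. In limma with the intensity trend the probe at 0.91 passed (adjusted p = 0.0161). Of 11 housekeeping genes 0 passed, with the lowest p for Tbp (0.49, adjusted p = 0.209) and Gusb (-0.63, adjusted p = 0.222, or -0.41 without LPS replicate 1). Of all genes 0.759% passed upward and 0.368% downward. The groups did not overlap for 2 of the 11 upward and 6 downward, where they did not for 17.5% and 17.7% of all genes. In limma with the intensity trend Tbp passed upward (adjusted p = 0.0479), where 5.85% of all genes did.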
